A study of Homo sapiens with 4 samples.

Results

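Open chromatin of OPM-2 cells exposed to all-trans retinoic acid plus pomalidomide was compared with that of OPM-2 cells exposed to the vehicle DMSO, using the peaks that the authors called in each ATAC-seq library on chromosomes 1 to 22 and X. The comparison used 161836 of the 307634 peaks of the series, 85434 from the ATRA+POM library and 76402 from the DMSO library, and thus 2 of its 4 samples. OPM-2 is an established human multiple myeloma line. The ATRA+POM cells received 1 µM all-trans retinoic acid (ATRA) and 1 µM pomalidomide (POM) for 72 h, the POM and ATRA cells received 1 agent at the same concentration for 72 h, and the DMSO cells received vehicle for 72 h. Because every condition was measured in a single library, differences between conditions are without replication, no p-value is given, and every call below is a fixed size of difference. The study concerned retinoic acid receptor beta and resistance to immunomodulatory drugs in myeloma with the t(4;14) translocation, and the comparison shows where accessible regions differed after the combination.

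In ATAC-seq the Tn5 transposase inserts adapters where DNA is not covered by nucleosomes, and enhancers and promoters in use appear as peaks. All-trans retinoic acid binds the retinoic acid receptors RARA, RARB and RARG, which pair with retinoid X receptors on repeats of a short hexamer and recruit coactivators when the ligand is bound. Pomalidomide binds cereblon, the substrate receptor of a CRL4 ubiquitin ligase, and directs it to the lymphoid transcription factors IKZF1 and IKZF3, which myeloma cells depend on. The t(4;14) translocation, which OPM-2 carries, places NSD2, a histone methyltransferase gene, and FGFR3, a receptor tyrosine kinase gene, under immunoglobulin enhancers.

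A region was called gained when its peak was among the 30000 highest scores of the ATRA+POM list and overlapped no DMSO peak by 1 bp or more, and lost in the reverse case. Peaks of both lists that overlapped were merged into 56509 shared regions. Each shared region was ranked by its highest score in each library, and its shift is the ATRA+POM percentile minus the DMSO percentile. Regions were called up or down when the shift reached 25 percentile points. The score is the −log10 q-value that the authors deposited for each peak. Regions carry the name of the protein-coding gene whose body lay closest, up to 100 kb away, as a label and not as a shown target.

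The promoter windows printed here are a selection, made after the values were seen, of large differences at gene starts in either direction, plus the retinoid-responsive start of RARB. Each runs from 250 bases before an annotated start to 50 after it, from RefSeq on GRCh38.p14, 5′ to 3′ on the gene's strand. Capitals mark the nuclear receptor hexamer AGGTCA, the degenerate direct repeat of that hexamer spaced by 5 bases, the AP-1 letters TGACTCA, the ETS letters CCGGAA or the GC box GGGCGG, on either strand, and neighbouring GC boxes can overlap. In order, they are CD1D (chr1:158179697-158179996, plus strand), CD1A (chr1:158248086-158248385, plus strand), BCO1 (chr16:81238439-81238738, plus strand), RARB (chr3:25428013-25428312, plus strand), MYBL2 (chr20:43666864-43667163, plus strand), SUZ12 (chr17:31936757-31937056, plus strand) and SCAMP5 (chr15:74995313-74995612, plus strand).
CD1D: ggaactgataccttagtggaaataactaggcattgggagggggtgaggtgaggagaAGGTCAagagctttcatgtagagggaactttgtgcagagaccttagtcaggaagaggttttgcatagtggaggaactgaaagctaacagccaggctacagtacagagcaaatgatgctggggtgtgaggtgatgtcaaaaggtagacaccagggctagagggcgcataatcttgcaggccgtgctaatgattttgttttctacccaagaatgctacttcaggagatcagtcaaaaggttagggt
CD1A: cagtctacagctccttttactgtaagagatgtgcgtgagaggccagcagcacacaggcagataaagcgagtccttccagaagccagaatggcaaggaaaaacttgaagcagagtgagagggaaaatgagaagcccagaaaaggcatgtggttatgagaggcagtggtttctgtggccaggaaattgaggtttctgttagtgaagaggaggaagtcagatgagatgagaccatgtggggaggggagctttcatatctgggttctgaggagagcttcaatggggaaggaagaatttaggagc
BCO1: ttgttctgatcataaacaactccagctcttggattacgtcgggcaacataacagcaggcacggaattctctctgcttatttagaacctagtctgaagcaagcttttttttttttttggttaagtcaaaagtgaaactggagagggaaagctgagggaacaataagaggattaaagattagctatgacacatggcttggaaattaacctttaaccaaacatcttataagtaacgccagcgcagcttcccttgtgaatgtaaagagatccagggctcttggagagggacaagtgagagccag
RARB: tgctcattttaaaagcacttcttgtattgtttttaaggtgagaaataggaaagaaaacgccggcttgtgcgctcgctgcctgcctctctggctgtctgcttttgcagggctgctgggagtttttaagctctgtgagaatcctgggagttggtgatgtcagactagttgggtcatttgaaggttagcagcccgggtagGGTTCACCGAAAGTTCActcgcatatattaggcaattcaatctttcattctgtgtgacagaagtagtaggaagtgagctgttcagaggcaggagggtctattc
MYBL2: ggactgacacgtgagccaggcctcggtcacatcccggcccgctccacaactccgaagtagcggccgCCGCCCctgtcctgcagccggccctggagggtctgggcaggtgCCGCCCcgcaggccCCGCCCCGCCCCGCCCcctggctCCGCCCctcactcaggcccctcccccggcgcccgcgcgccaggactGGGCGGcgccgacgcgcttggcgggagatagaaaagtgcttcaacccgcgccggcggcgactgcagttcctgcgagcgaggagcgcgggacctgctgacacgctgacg
SUZ12: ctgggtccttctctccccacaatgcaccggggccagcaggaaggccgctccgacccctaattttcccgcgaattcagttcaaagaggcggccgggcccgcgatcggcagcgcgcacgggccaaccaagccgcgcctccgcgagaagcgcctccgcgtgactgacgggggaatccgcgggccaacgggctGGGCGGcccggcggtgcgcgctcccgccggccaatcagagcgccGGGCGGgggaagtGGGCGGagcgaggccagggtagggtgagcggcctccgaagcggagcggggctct
SCAMP5: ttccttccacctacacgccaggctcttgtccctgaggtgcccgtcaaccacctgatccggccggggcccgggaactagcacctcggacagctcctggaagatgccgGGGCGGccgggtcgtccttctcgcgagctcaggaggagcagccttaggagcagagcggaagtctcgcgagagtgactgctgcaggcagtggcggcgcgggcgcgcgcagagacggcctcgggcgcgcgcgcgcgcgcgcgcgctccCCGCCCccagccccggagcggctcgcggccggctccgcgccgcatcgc

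The first 3 windows lay in regions that were up after ATRA+POM, and their G and C content was 47.3% for CD1D, 48.7% for CD1A and 41.7% for BCO1. The last 3 lay in regions that were down or lost, with 75.3% for MYBL2, 73.0% for SUZ12 and 74.0% for SCAMP5. CD1D held 1 hexamer AGGTCA, at base 57 of its window, and CD1A and BCO1 held none of the marked letters. By contrast MYBL2 held 7 GC boxes, SUZ12 held 3 and SCAMP5 held 2. The RARB window held the degenerate repeat from base 198.

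The library after ATRA+POM was shallower than the DMSO library. Its background coverage, recovered from the deposited fold and p-value, was 1.51 reads against 2.36 in DMSO, which places its depth at 62.9% of DMSO. The median summit pileup (reads stacked at the highest point of a peak) was 22 against 30, the smallest called was 7 against 8, and the 30000th score was 20.3 against 22.5. The POM and ATRA libraries, which serve below as separate measurements, stood at 33.7% and 94.4% of the DMSO depth. Of 10 plasma cell marker genes, 7 had a promoter window, and 6 of these overlapped a peak in each of the 4 lists, while JCHAIN overlapped none. The only B cell marker with a window, PAX5, had no peak in any list. Among T cell, myeloid, epithelial and fibroblast markers, peaks covered windows of CD8A and PDGFRA in each list and of CD33, with scores of at most 3.9, in ATRA and DMSO.

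After ATRA+POM, 1553 of the 30000 highest-scoring regions were gained (5.18%, 95% Wilson interval 4.93 to 5.43%) and 942 of the 30000 highest-scoring DMSO regions were lost (3.14%, 2.95 to 3.34%). The intervals cover counting error only. Gained regions had a median summit pileup of 38, with a range of 26 to 208, and lost regions one of 49, with a range of 32 to 260. Pileups were scaled by 0.732, the median ratio of ATRA+POM to DMSO pileups over shared regions. A gained region would then stand at no less than 35.5 reads in DMSO, and a lost one at no less than 23.4 in ATRA+POM. The smallest pileups called were 8 in DMSO and 7 in ATRA+POM, but the pileup needed rises with the local background. A DMSO peak inside PRDM1 with a pileup of 57 scored only 3.29, and an ATRA+POM peak inside SDC1 with 31 scored 1.96. Whether depth left some of these regions uncalled was not tested. The median gained region had 3 protein-coding genes within 500 kb, against 7 for all 30000 candidates, and the median lost region had 12, against 9 for its candidates.

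The gained region with the highest score was found 37.2 kb outside RXRG, which encodes a retinoid X receptor that pairs with RAR proteins (chromosome 1, 165482079 to 165482669). Its score was 164 in ATRA+POM and 114 in POM, and neither ATRA nor DMSO had a peak there. The pileup was 182 in ATRA+POM and 112 in POM, and 248 reads would be expected in DMSO at equal accessibility. The other 5 regions of RXRG were shared, and 0 of them was up or down, with shifts of 0.4 to 21.6 points. Of its 6 regions, the called one lay outside the gene body.

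CD34, a surface sialomucin gene of haematopoietic progenitors, had a gained region inside its body (chromosome 1, 207890117 to 207890981) with a score of 92.7 in ATRA+POM, 39.7 in POM and no peak in ATRA or DMSO. Of its 9 shared regions, 1 was down, with a score of 16.1 in ATRA+POM against 83.7 in DMSO, and 0 were up. Opposite calls thus stood within the same locus. Further gained regions lay inside DCC, the netrin receptor gene, with a score of 106 in ATRA+POM, and 94.3 kb from CDH8, a neuronal cadherin gene, with 98.7. A pair near GOLIM4, which encodes a Golgi membrane protein, scored 111 and 86.2 in ATRA+POM. All 4 had a peak in POM, with scores between 41.6 and 95.4, and none in ATRA.

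Among lost regions at least 300 bp wide and within 100 kb of a gene, the highest score was 257 bp from CCDC92B, with no peak in ATRA+POM, 20.2 in POM, 70.8 in ATRA and 133 in DMSO. SCAMP5, a secretory membrane protein gene, lost the region at its start shown above (chromosome 15, 74995160 to 74995583). That region had no peak in ATRA+POM and scored 12.2 in POM, 50.5 in ATRA and 92.1 in DMSO, and a DMSO pileup of 111 corresponds to 81.3 reads expected in ATRA+POM. A region inside CACNA1A, a neuronal calcium channel gene, had no peak in ATRA+POM and scored 10.5 in POM, 43.0 in ATRA and 80.5 in DMSO. At each of these the order of scores was DMSO over ATRA over POM, which is also the order of library depth. The region at the start of CD38, with a shift of 1.03 points, had the same order, with 128, 127 and 42.3. The part of depth in this order was not tested. Lost regions at TPTEP2-CSNK1E, a readthrough gene that overlaps CSNK1E, and at RABL2B, which has a near-identical copy, are uncertain as to their gene.

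**Figure D1:**
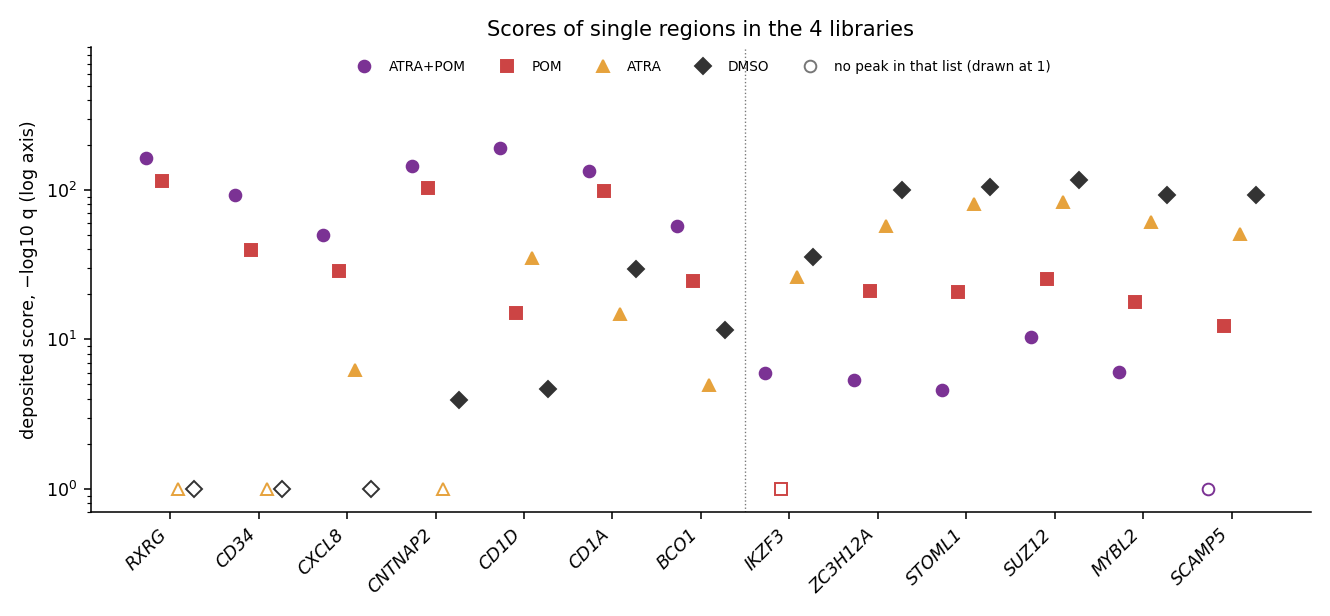
Deposited score (−log10 q, log axis) of 13 single regions in the ATRA+POM, POM, ATRA and DMSO libraries; each point is 1 library, and open symbols at 1 mark lists with no peak there. Left of the dotted line are regions gained or up after ATRA+POM, where both libraries with POM stand above DMSO; right of it are regions down or lost, where DMSO is highest.

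Most genes with a gained region had a single one, and 557 of the 1553 gained regions had no gene within 100 kb. Of 879 genes with a gained region, 775 had 1, 94 had 2, 7 had 3 and 3 had 4. The 3 genes with 4 were SNX18, a sorting nexin gene that acts in endocytosis, CLXN, and EPHA6, an ephrin receptor gene. Scores of the SNX18 regions were 67.0, 42.0, 24.1 and 21.6 in ATRA+POM, and ATRA had no peak at any of them. Genes with 3 included KLHL1, a brain actin-binding protein gene, and GRIP1, which encodes a scaffold of glutamate receptors. For lost regions the highest numbers were 3 each, at SNX10, an endosomal sorting nexin gene, and at KAZN, a desmosome-associated protein gene. The SNX10 regions scored 49.0, 26.3 and 23.4 in DMSO.

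Across the 56509 shared regions, 5851 were up (10.4%) and 5503 were down (9.74%). The middle of the shifts lay between −12 and 10.6 points (quartiles), with an SD of 20.3 and extremes of 90.0 and −79.7. Scores of the 2 libraries had a Spearman rho of 0.753 across the 56509 regions, which differ in base composition and mappability in the same way in both and are not independent points. With percentiles taken over each whole list instead of over the shared regions, 6592 were up and 3869 were down. Regions just inside and just outside either threshold differed by less than the printed precision, on both sides at 25 points in size.

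**Figure D2:**
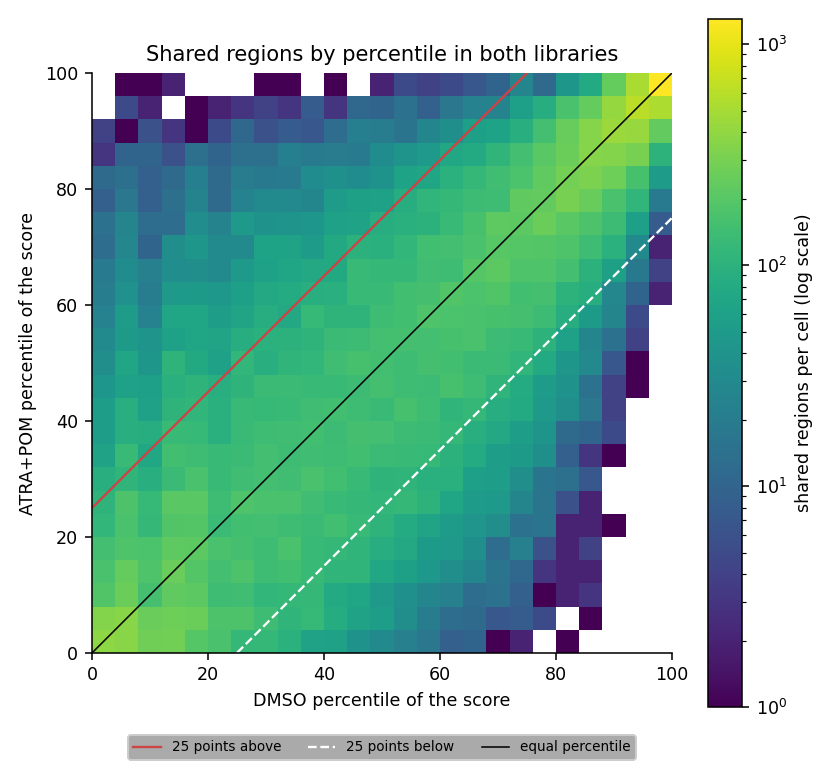
Number of shared regions (colour, log scale) by DMSO percentile (x axis) and ATRA+POM percentile (y axis) of the score, in cells of equal width. Regions above the red line were up and those below the dashed white line were down; the top right corner, where both scores are highest, holds few called regions.

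The largest upward shift was inside CNTNAP2, a contactin-associated protein gene of neurons (chromosome 7, 146961232 to 146962164). It scored 145 in ATRA+POM, 103 in POM, had no peak in ATRA and scored 3.90 in DMSO. The pileup was 172 in ATRA+POM against 12 in DMSO, a scaled ratio of 19.6 with an exact binomial interval of 10.9 to 38.6. A further region of the same gene scored 75.6 in ATRA+POM, 26.3 in POM, 6.22 in ATRA and 2.52 in DMSO. The region next to the start of CNTNAP2 scored 270 in ATRA+POM against 160 in DMSO, a shift of 6.43 points, against 90.0 and 85.8 points for the pair inside the gene.

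CD1D encodes a molecule that presents lipids to natural killer T cells. The region over its printed window (chromosome 1, 158179337 to 158180147) scored 190 in ATRA+POM, 15 in POM, 34.9 in ATRA and 4.69 in DMSO. Pileups were 226 in ATRA+POM, 20 in POM, 56 in ATRA and 14 in DMSO. The score in the combination exceeded that in each single agent, and both single agents stood above DMSO. The scaled pileup ratio of ATRA+POM to DMSO was 22 (12.9 to 41.0), the highest of the 10 leading upward regions. Flanking regions 14.8 kb and 17.5 kb from the gene had shifts of 8.87 and 8.93 points.

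CD1A, a neighbouring lipid-presenting gene best known from Langerhans cells, had a region 27 bp from its boundary, which was singled out after its values were seen. It scored 133 in ATRA+POM, 98.4 in POM, 14.7 in ATRA and 29.4 in DMSO, a shift of 38.9 points. Here POM alone was close to the combination and ATRA alone was below DMSO, another order than at CD1D. CD1B and CD1E were added in the same way. CD1B had 1 of 3 shared regions up, with a score of 28.4 in ATRA+POM against 12.1 in DMSO. The single region of CD1E had a shift of 0.419 points.

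Other leading upward regions lay inside ZC3H12B, with a score of 131 in ATRA+POM, 56.4 in POM and 3.90 in DMSO, and 25.3 kb from TACR1, the substance P receptor gene, with 110 in ATRA+POM, 76.9 in POM and 3.19 in DMSO. SMYD3, a lysine methyltransferase gene, held one with 99.5 in ATRA+POM, 44.4 in POM, 5.41 in ATRA and 3.90 in DMSO. ATRA had no peak at ZC3H12B or TACR1. In 9 of the 10 leading regions the POM score, 29.8 to 103, was above the ATRA and the DMSO scores, which were at most 5.41. By score CD1D was the exception. The POM library stood at 33.7% of the DMSO depth and the ATRA library at 94.4%, so raw scores at CD1D do not rank the single agents.

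Among downward shifts, the region inside STOML1 was first (chromosome 15, 73991792 to 73992615), with a score of 4.59 in ATRA+POM, 20.8 in POM, 80.6 in ATRA and 104 in DMSO. MYBL2, a transcription factor gene of proliferating cells, had 6.03 in ATRA+POM, 17.8 in POM, 60.8 in ATRA and 92.8 in DMSO at its printed start. Its pileup was 14 in ATRA+POM against 145 in DMSO, a scaled ratio of 0.132 (0.0703 to 0.228). The other 3 regions of MYBL2 had shifts between −17.2 and −3.95 points, so the call rested on the start.

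ZC3H12A, the gene of the RNA-degrading enzyme regnase-1, had a region 47 bp from its boundary with 5.38 in ATRA+POM, 21 in POM, 57.0 in ATRA and 99.9 in DMSO. Its shift was −76.3 points by score and −28.5 points by pileup. At TNFRSF12A, which encodes the receptor of the cytokine TWEAK, the shift was −72.6 points by score and −35.1 points by pileup, with pileups of 37 in ATRA+POM against 234 in DMSO. At both, the shift by pileup was the smaller one. RHPN2 and IER5L, with scaled ratios of 0.143 and 0.130, had pileup shifts of −72.6 and −74.7 points, close to their score shifts.

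Regions high in ATRA+POM were compared in the ATRA and POM libraries, which the calls did not use. The libraries with POM were also shallower, at 33.7% (POM) and 62.9% (ATRA+POM) of the DMSO depth, against 94.4% for ATRA. Median peak widths were 354 bp in POM, 517 bp in ATRA+POM, 580 bp in ATRA and 577 bp in DMSO. With 1 library each, a library property shared by POM and ATRA+POM cannot be told apart from the effect of pomalidomide. In the 42965 regions called in all 4 lists, POM exceeded ATRA by 25 points or more in 11.2% and was below it by as much in 11.4%. Among the 4393 up regions of this set the median difference of POM minus ATRA was 23.2 points, and 47.0% exceeded ATRA by 25 points or more. Among the 3950 down regions the median was −19.9 points, and 39.6% were below ATRA by 25 points or more. POM was above ATRA in 84.7% of the up regions and in 16.1% of the down regions, against 48.7% of all.

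That ordering held with few and with many genes around the region. Among up regions with at most 2 genes within 500 kb, 42.0% had POM above ATRA by 25 points or more, against 19.2% of all such regions. Among up regions with over 20 genes it was 49.7%, against 3.68%. Down regions with over 20 genes had POM below ATRA by 25 points or more in 50.8%, against 22% of all such regions. For gained regions, 93.2% had a peak in POM and 22.3% in ATRA, against 98.0% and 93.7% of all 30000 candidates. Only 37 gained regions were in ATRA and not in POM, and 69 were in neither. Lost regions had a peak in ATRA in 93.9% and in POM in 49.8%, against 99.6% and 93.8% of all DMSO candidates.

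Regions where the combination stood apart from each other list were few. By a rule chosen after the values were seen, the ATRA+POM percentile lay at least 25 points above those of POM, ATRA and DMSO in 598 of 42965 regions (1.39%) and below all 3 in 648 (1.51%). The same rule found POM above the other 3 in 1.01%, ATRA in 0.354% and DMSO in 0.237%. POM was below the other 3 in 609 regions (1.42%), close to the share of the combination, ATRA in 0.605% and DMSO in 0.202%. A region 82.4 kb from NDP, the gene of norrin, a ligand of Wnt receptors, led the list. It scored 44.3 in ATRA+POM, 8.03 in POM, 3.19 in ATRA and 3.19 in DMSO. GRM5, a metabotropic glutamate receptor gene, was also highest in the combination, with 38.3 in ATRA+POM, 7.51 in POM, 6.22 in ATRA and 9.34 in DMSO. On the low side was a region inside GPRC5A, a retinoic acid-induced receptor gene, with 12 in ATRA+POM, 35.2 in POM, 55.1 in ATRA and 86.2 in DMSO. A region 35.5 kb from YAP1, the Hippo pathway coactivator gene, scored 11.7 in ATRA+POM, 31.3 in POM, 54.4 in ATRA and 55.3 in DMSO. The POM library is the shallowest, and its part in these counts was not tested.

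Shifts followed position in the genome. Regions within 1 kb of a gene boundary had a median shift of −3.78 points (95% interval of the median −4.04 to −3.58, over 10050 regions), with 1.21% up and 10.9% down. Those over 100 kb from any gene had a median of 9.14 points (8.74 to 9.62, over 8838 regions), with 21.1% up and 3.70% down. Both intervals take the regions as independent points and hold no variation between libraries. Regions inside gene bodies and regions between genes had medians of −1.07 and −0.841. Of the 10050 boundary regions, 6790 had a mean percentile over 75, where percentiles can differ little. At mean percentiles of 25 to 50, their median shift was −20.6 points and 43.4% were down, against 19.3% of regions inside gene bodies and 6.18% of regions over 100 kb away.

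The number of genes around a region ordered the calls by score. With 0 protein-coding genes within 500 kb, 25.9% of shared regions were up and 1.92% were down. With 6 to 10 genes the shares were 8.36% and 9.15%, and with over 40 genes 1.89% and 23.2%. Leaving out gene boundaries kept the order, with 26.0% up at 0 genes and 24.6% down at over 40. The fall at many genes depended on the ranked column. Median shifts at 0, 6 to 10 and over 40 genes were 12.9, −1.03 and −10.3 points by score. By fold they were 7.45, −1.49 and −0.763. By chromosome, the lowest medians by score were those of chromosomes 22 (−13.9 points), 19 (−12.2) and 17 (−10.1). The highest were those of chromosomes 4 (5.54) and X (4.14). By fold the medians of chromosomes 22, 19 and 17 were −5.7, −2.83 and −3.3, and those of 4 and X were 1.93 and 1.51. Gained regions numbered 170 on chromosome 4 and 8 on chromosome 19, while lost regions numbered 31 and 99. A difference between libraries in how well gene-rich, GC-rich DNA was sampled cannot be told apart from the treatment with 1 library each.

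**Figure D3:**
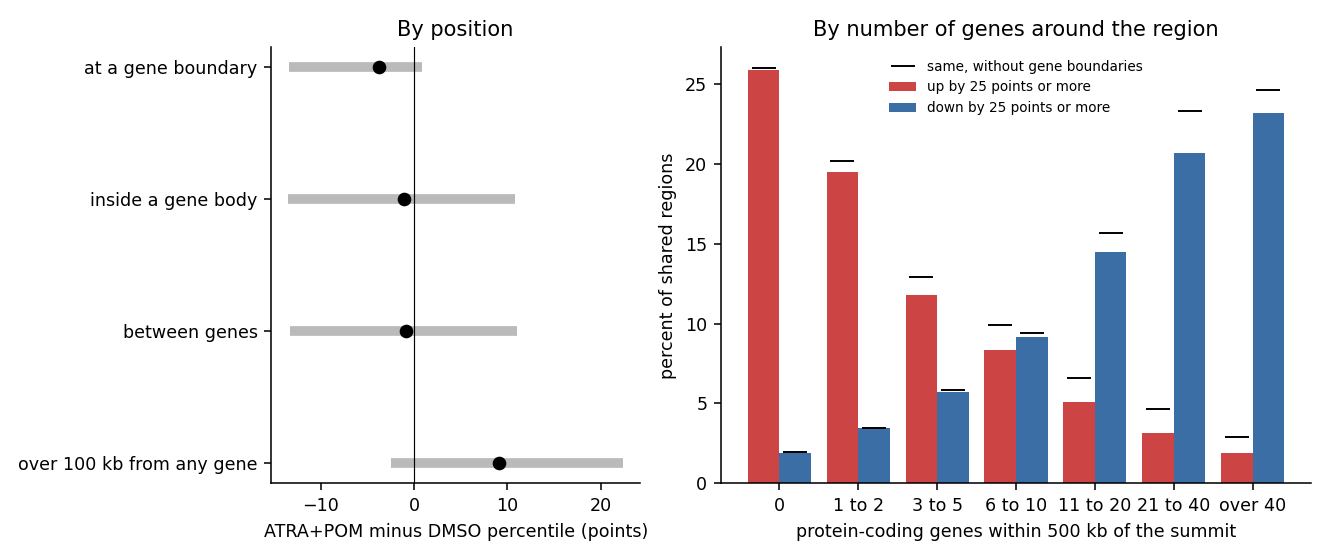
Left, median shift (points, ATRA+POM minus DMSO percentile) of shared regions by position, with grey bars for the quartiles; right, percent of shared regions up (red) and down (blue) by the number of protein-coding genes within 500 kb, with short lines for the same without gene boundaries. Up regions make up 25.9% at 0 genes and 1.89% at over 40, and down regions run the other way.

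Promoter windows overlapped 89 up regions and 821 down regions of the 8552 shared regions that held a window. Windows of up regions had a median G and C content of 48.3%, those of down regions 71.3%, and windows in any shared region 66.0%. The GC box was in 15.5% of up windows, 79.4% of down windows and 72.5% of windows in any shared region, against 56.3% of all 22131 windows of protein-coding genes. AP-1 letters were in 10.3% of up windows, 3.55% of down windows and 2.52% of windows in any shared region, against 4.01% of all windows. The hexamer AGGTCA was in 15.5% of up windows, 8.84% of down windows and 9.02% of windows in any shared region, against 11.9% of all windows. ETS letters were in 19.6% of up windows, 29.8% of down windows and 31.7% of windows in any shared region, against 21.2% of all windows. The CACGTG E-box was in 6.19%, 11.4%, 10.3% and 8.34% in the same order. The direct repeat of AGGTCA spaced by 5 was in 0 up windows, 0 down windows and 0 windows in any shared region, against 1 of all 22131 windows. Its degenerate form, as marked in RARB, was in 0 up windows and 0 down windows. It was in 5 windows in any shared region, against 17 of all windows. Both forms are too rare for the 0 among up windows to be read as a lack. Only 97 windows were up, and the shares are descriptions of letters, not of bound sites.

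Gained regions overlapped windows of 9 genes and lost regions windows of 57. The gained ones included CXCL8, the interleukin-8 gene, with 49.8 in ATRA+POM, 28.6 in POM, 6.22 in ATRA and no peak in DMSO. RPE65, the retinoid isomerase gene of the visual cycle, had 48.4 in ATRA+POM and 24.9 in POM, with no peak in ATRA or DMSO. The interferon-induced GTPase gene GBP4 had 30.5 in ATRA+POM and 22.7 in POM, and the receptor tyrosine kinase gene ALK had 24.1 and 30.2, each with no peak in ATRA or DMSO. The other windows belonged to LOC101059915, DEPP1, DDC, CASP5 and RCAN1. BCO1, which encodes the enzyme that splits beta-carotene into retinal, was up at its printed start, with 57.3 in ATRA+POM, 24.5 in POM, 4.93 in ATRA and 11.6 in DMSO. The genes of this paragraph were singled out after their values were seen.

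Among windows with a down region was that of CDT1, a replication licensing factor gene, with 7.24 in ATRA+POM, 6.96 in POM, 23.6 in ATRA and 77.8 in DMSO. SUZ12, a core subunit gene of Polycomb repressive complex 2, had 10.4 in ATRA+POM, 25.4 in POM, 82.8 in ATRA and 116 in DMSO at its printed start. Its pileup there was 19 in ATRA+POM against 158 in DMSO, a scaled ratio of 0.164 (0.0963 to 0.265). A lost window at UBA3, a subunit gene of the NEDD8-activating enzyme, had no peak in ATRA+POM or POM, 60.4 in ATRA and 66.4 in DMSO. ULK1, an autophagy kinase gene, had no peak in ATRA+POM, 10.9 in POM, 50.3 in ATRA and 60.1 in DMSO. CDT1, UBA3 and ULK1 were picked after their values were seen.

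RARB had 20 shared regions, the most among the receptor genes, with a median shift of 15.7 points. Of these, 4 were up and 0 down, and 16 of 20 shifts were above 0. The largest was deep inside the gene (chromosome 3, 25217860 to 25219000), with 36.8 in ATRA+POM, 16.3 in POM, 4.64 in ATRA and 3.19 in DMSO, a shift of 66.4 points. A second, 55.3 kb outside the gene, scored 47.5 in ATRA+POM, 40 in POM, 20.8 in ATRA and 19.8 in DMSO. The region at the gene's outer start went the other way, with 29.3 in ATRA+POM, 15.2 in POM, 50.2 in ATRA and 63.4 in DMSO, a shift of −13.7 points. The printed RARB window, which holds the degenerate repeat known as the retinoic acid response element of this gene, overlapped no peak in any of the 4 lists. RARB lies where few genes surround it, with a median of 3 within 500 kb, and the part of gene number in its median was not tested.

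RARA, the first receptor gene, had 4 shared regions with a median shift of −7.26 points by score and 5.22 by fold, and 1 was down, with 3.48 in ATRA+POM, no peak in POM, 34.6 in ATRA and 37.8 in DMSO. RARG had 3, all between −2.99 and −2.44 points by score, with a median of 1.01 by fold. RXRA, the main dimer partner gene, had 14 with a median of −10.6 points, 4 of them down and 0 up. CYP26A1, which encodes the enzyme that breaks down retinoic acid and is a classical target of the receptors, had 5 regions with a median of 6.73 points and no call. The region inside its body scored 36.2 in ATRA+POM, 11.4 in POM, 23.2 in ATRA and 21.5 in DMSO. DHRS3, a retinaldehyde reductase gene, had 2 regions, 1 of them down. Over the whole list of retinoid receptor, metabolism and response genes, 25 of 31 genes had 123 shared regions, with 10 up (8.13%), 8 down (6.5%), 1 gained and 0 lost. Its median shift was 1.21 points by score and −0.0867 by fold, against −1.85 over all 47671 regions of protein-coding genes, of which 8.36% were up and 10.9% down.

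IKZF3, the gene of Aiolos, a pomalidomide-recruited substrate, had 6 shared regions that were all lower, with a median shift of −33.2 points and 4 down. The region at its start scored 8.44 in ATRA+POM, 16.2 in POM, 27.1 in ATRA and 28.3 in DMSO. A region inside the gene (chromosome 17, 39794179 to 39795207) scored 5.98 in ATRA+POM, had no peak in POM, and scored 26.0 in ATRA and 35.8 in DMSO. The strongest region, 3.32 kb outside the gene, had 93.9 in ATRA+POM, 32.0 in POM, 151 in ATRA and 190 in DMSO, a shift of −4.12 points. IKZF1, the gene of Ikaros, had 11 regions with a median of −2.30 points by score and 3.11 by pileup, 1 up and 1 down. CRBN, the cereblon gene, had 2 regions with shifts of 6.34 and 8.08 points. In the whole list, 17 of 21 genes had 67 regions, with 3 up (4.48%) and 10 down (14.9%). Over all protein-coding genes 8.36% of regions were up and 10.9% down. In the list 12 of the 17 genes had a median below 0, against 9809 of 15309 of all protein-coding genes. Regions of the list had a median of 10 genes within 500 kb. Of all shared regions 9.15% were down with 6 to 10 genes and 14.5% with 11 to 20. IKZF3 lies in gene-rich sequence with a median of 28 genes within 500 kb, where 20.7% of regions with 21 to 40 genes were down.

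**Figure D4:**
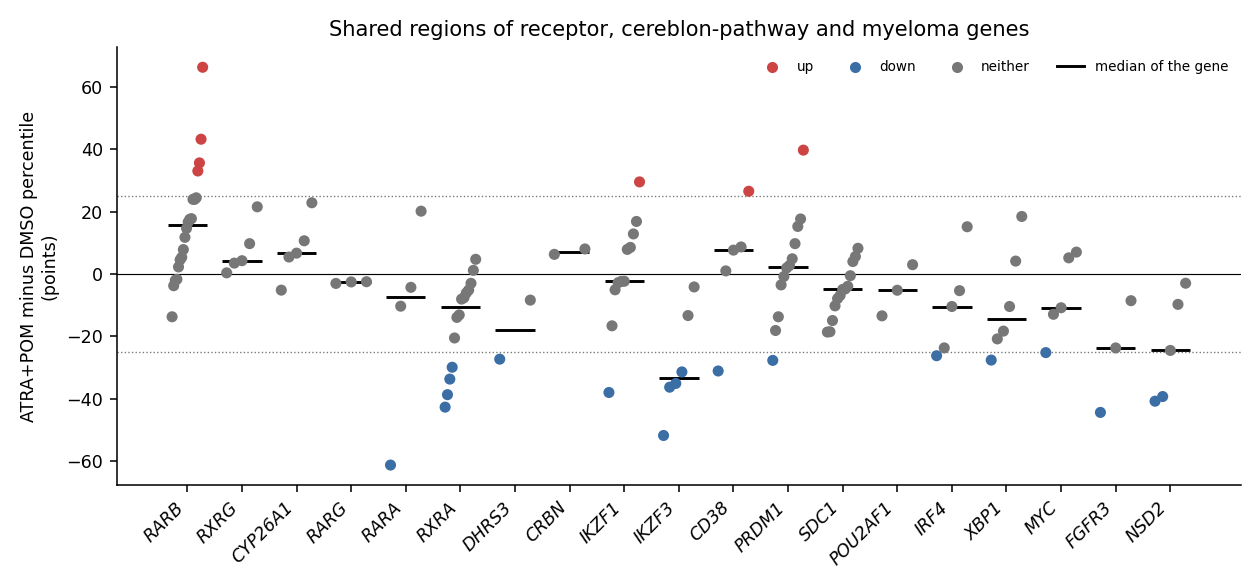
Shift of every shared region (points, ATRA+POM minus DMSO percentile) for 19 genes of retinoid signalling, the cereblon pathway and myeloma; each point is a region, red is up, blue is down, and the black bar is the gene's median. RARB holds 4 up and 0 down regions, and IKZF3 holds 4 down and 0 up.

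Of the genes on the t(4;14) breakpoint, NSD2 had 5 shared regions that were all lower, with a median of −24.5 points and 2 down. Its region next to the gene start scored 27.1 in ATRA+POM, 9.88 in POM, 65.9 in ATRA and 98.9 in DMSO. FGFR3 had 3, all lower, with a median of −23.7 points and 1 down, which scored 12.6 in ATRA+POM, 19.3 in POM, 48.8 in ATRA and 62.2 in DMSO. When ranked by fold, the median of FGFR3 was −0.264 points. In the list of t(4;14) genes, D-type cyclins and MAF genes, 9 of 47 regions were down (19.1%) and 3 up (6.38%), with a median of −7.99 points by score and −0.517 by fold. Regions of the list had a median of 15 genes within 500 kb, and of all shared regions with 11 to 20 genes 14.5% were down and 5.12% up.

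Among plasma cell genes, 129 regions had a median shift of −2.34 points, with 6 up (4.65%) and 12 down (9.30%), against 8.36% up and 10.9% down over all protein-coding genes. CD38, a surface ectoenzyme gene and antibody target in myeloma, had 1 region up and 1 down of 5, and the region at its start scored 87.7 in ATRA+POM, 42.3 in POM, 127 in ATRA and 128 in DMSO, a shift of 1.03 points. SDC1, which encodes the plasma cell marker CD138, had 13 regions and 0 calls. IRF4, a transcription factor gene that myeloma cells need, had 5 regions with a median of −10.4 points by score and 0.347 by fold, and 1 was down. The region at its start scored 69.7 in ATRA+POM, 52.6 in POM, 122 in ATRA and 145 in DMSO. XBP1, PRDM1 and MYC had 1 down region each, PRDM1 also had 1 up, and TNFRSF17 had no shared region. Of other genes, B cell program genes had 10 regions up and 10 down of 79.

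Negative feedback genes of the MAP kinase pathway held 4 gained and 0 lost regions beside 64 shared ones, against 996 gained and 901 lost beside 47671 shared ones over all protein-coding genes. DUSP6, an ERK phosphatase gene, had 2, with 37.5 and 26.4 in ATRA+POM, 12.6 and no peak in POM, 1.86 and no peak in ATRA, and no peak in DMSO. SPRY1 and SPRED1, which encode inhibitors of receptor tyrosine kinase signalling, had 1 each, with 30.8 and 23 in ATRA+POM, 19.4 and 9.46 in POM, and no peak in ATRA or DMSO. Of the 64 shared regions, 7 were up (10.9%) and 4 down (6.25%), close to the 11.8% up and 5.69% down of all shared regions with 3 to 5 genes within 500 kb, where the median of the list, 5 genes, lies. Near ETV1, an ERK-responsive transcription factor gene, a region scored 92.1 in ATRA+POM, 67.4 in POM, 37.3 in ATRA and 23.2 in DMSO.

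By score, chromatin regulators had the lowest median of the lists, −15 points over 76 regions, with 22 down (28.9%) and 2 up (2.63%). Of 26 genes 23 had a median below 0, against 9809 of 15309 of all protein-coding genes. Besides SUZ12, CBX2, a Polycomb chromodomain protein gene, had a region with 6.03 in ATRA+POM, 6.76 in POM, 25.4 in ATRA and 41.2 in DMSO. KDM2B, which encodes a CpG island-binding demethylase, had one with 7.91 in ATRA+POM, no peak in POM, 26.3 in ATRA and 52.9 in DMSO. Near KMT2C, a histone methyltransferase gene, a region went the other way, with 37.5 in ATRA+POM, 42.2 in POM, 4.62 in ATRA and 7.76 in DMSO. Ranked by fold, the median of the list was −4.43 points and no longer the lowest. HOX genes (−6.87), T cell markers (−4.83), cell cycle genes (−4.68) and antigen presentation genes (−4.62) were then lower. Regions of this list had a median of 13 genes within 500 kb, and of all shared regions with 11 to 20 genes 14.5% were down. Of the regions of the list 30.3% lay at a gene boundary, against 21.1% over all protein-coding genes.

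Cell cycle genes had 11 down (19%) and 1 up (1.72%) of 58 regions, with a median of −8.57 points. The median region of the list had 10 genes within 500 kb. Of all shared regions 9.15% were down with 6 to 10 genes and 14.5% with 11 to 20. Of the regions of the list 31.0% lay at a gene boundary, against 21.1% over all protein-coding genes. MKI67, the gene of the proliferation marker Ki-67, had 13.4 in ATRA+POM, 9.21 in POM, 66.5 in ATRA and 86.6 in DMSO at a region 73 bp from its boundary. MCM3, a replicative helicase subunit gene, had 9.89 in ATRA+POM, 18.2 in POM, 23.2 in ATRA and 38.7 in DMSO at its boundary. CDKN1A, which encodes the inhibitor p21, also had a down region, 9.16 kb away, with 11.4 in ATRA+POM against 52.4 in DMSO. At E2F2, a transcription factor gene of the cell cycle, a region 14 bp from the boundary was lost and one 2.50 kb outside was gained. Ribosomal protein genes had 9 down (16.7%) and 2 up (3.70%) of 54 regions. HOX genes had 7 down (22.6%) and 0 up of 31, with 1 gained and 3 lost. Their regions had medians of 14.5 and 20 genes within 500 kb. Of all shared regions 14.5% were down with 11 to 20 genes, the class of both medians, and 20.7% with 21 to 40. The 16.7% of ribosomal protein genes was near 14.5%. The 22.6% of HOX genes, over 31 regions, was above 14.5% and near the 20.7% of the next class.

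In the apoptosis, inflammatory and secretory lists the share down was near the 10.9% of all protein-coding genes, except for antigen presentation genes with few regions. BCL2 family genes had 6 down (9.09%) and 3 up of 66 regions and 2 lost, of which BBC3, the gene of the BH3-only protein PUMA, had a region with no peak in ATRA+POM, 2.36 in POM, 19.1 in ATRA and 38.3 in DMSO. Close to PMAIP1, the gene of the BH3-only protein NOXA, a region was up with 90.8 in ATRA+POM, 56.4 in POM, 16.8 in ATRA and 22.8 in DMSO. NF-kB genes had 6 down (11.1%) and 2 up of 54, led by a region inside MAP3K14, the kinase gene of the noncanonical pathway, with 6.91 in ATRA+POM, 15 in POM, 30.2 in ATRA and 68.1 in DMSO. AP-1 genes had 6 down (12.2%) and 3 up of 49, and the region at JUNB scored 15.7 in ATRA+POM, 11.2 in POM, 97.9 in ATRA and 88.4 in DMSO. Interferon-stimulated genes had 6 down (10.7%) and 5 up of 56, antigen presentation genes 3 down and 1 up of 15, and unfolded protein response and secretion genes 9 down (10.8%) and 2 up of 83.

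Markers of myeloid differentiation, which retinoic acid induces in leukaemia, had 4 down (10.5%) and 0 up of 38 regions, 2 gained and 1 lost. A gained region 74.7 kb from CEBPB, a myeloid transcription factor gene, scored 25.5 in ATRA+POM and had no peak in the other 3 lists, while another 11.2 kb from it was down, with 1.92 in ATRA+POM against 23 in DMSO. KLF4, a monocyte transcription factor gene, had a gained region 86.5 kb away with 26.3 in ATRA+POM and 11.3 in POM.

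Large neuronal adhesion genes were at the upper end. A list of contactin, teneurin, latrophilin, neurexin and related adhesion and netrin receptor genes had 52 up (17.7%) and 12 down (4.10%) of 293 regions, 13 gained and 1 lost, and a median of 8.87 points by score and 3.11 by fold. TENM4, a teneurin gene, had a region with 146 in ATRA+POM, 68.1 in POM, no peak in ATRA and 6.39 in DMSO. CNTN5, a contactin gene, had one with 41.0 in ATRA+POM, 15.8 in POM, 3.19 in ATRA and 1.89 in DMSO. Type II cadherin genes had 13 up (20.6%) and 4 down (6.35%) of 63, non-clustered protocadherin genes 15 up (19%) and 4 down (5.06%) of 79, and ionotropic glutamate receptor genes 21 up (18.3%) and 5 down (4.35%) of 115. Median gene numbers within 500 kb were 1, 1, 1 and 3 for these lists. Of all shared regions with 1 to 2 genes, 19.5% were up. With 3 to 5 genes, the class of the glutamate receptor list's median, 11.8% were up. Within the glutamate receptor list GRIK5, which lies among many genes on chromosome 19, was down, with 8.58 in ATRA+POM against 53.1 in DMSO. Fibroblast markers, of another cell type, had 13 regions at 4 of 5 genes, with 1 up and 0 down. Their median was 12.2 points (interval over regions 0.646 to 18.1), above each of these lists. Epithelial markers had 2 up and 1 down of 15 regions, and T cell and myeloid markers 0 calls in 7 and 2 regions; the part of other cells in the neuronal lists was not tested. Olfactory receptor genes had 20 up (11.7%) and 9 down (5.26%) of 171, and genes named ZNF 34 up (4.38%) and 93 down (12%) of 776.

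**Figure D5:**
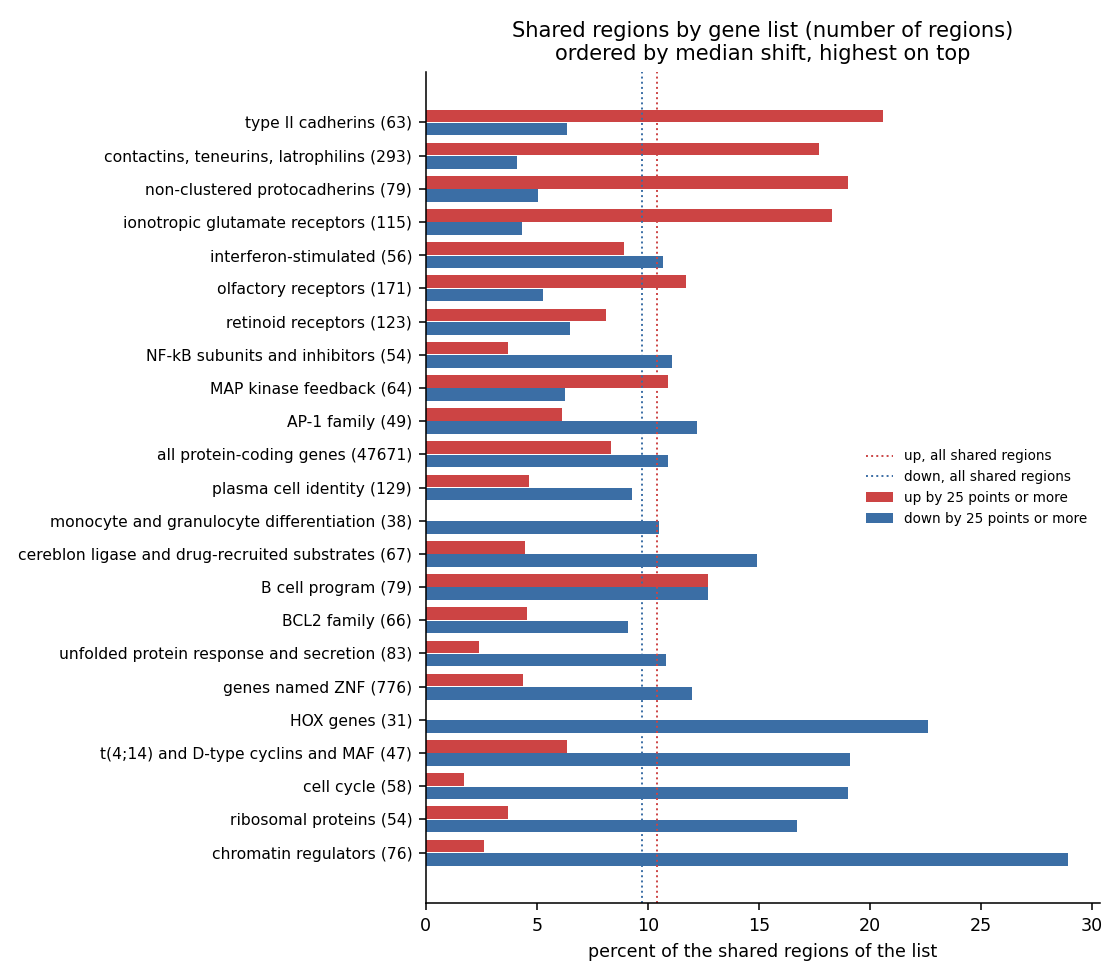
Percent of the shared regions of each gene list (number of regions in brackets) that were up (red) and down (blue), ordered by median shift; dotted lines give the shares over all shared regions, 10.4% up and 9.74% down. Cell type marker lists and antigen presentation are not drawn. Of the lists drawn, those of neuronal adhesion and glutamate receptor genes stand on top with 17.7% to 20.6% up, and chromatin regulators at the bottom with 28.9% down. The dotted lines are not matched for gene number. Of all shared regions, 19.5% were up with 1 to 2 genes within 500 kb and 11.8% with 3 to 5, and 14.5% were down with 11 to 20.

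Single genes with at least 5 shared regions numbered 3008. The highest medians were those of NDP (46.3 points), KLHL1 (39.1), SP110, a nuclear body protein gene (34.8), and PID1 (33.9), followed by SLC5A12, CLSTN2, GPR174 and DACH2. All 6 regions of KLHL1 were higher, 4 of them up, with shifts of 11.2 to 49.8 points. AGRN, the gene of the synaptic proteoglycan agrin, had the lowest median, −37.4 points, with 4 of 5 regions down. PNMA8B had all 6 regions down, between −45.7 and −27.2 points, and P2RX7, the ATP-gated channel gene, had 3 of 5 down. LOC124905135, LTBP4, ZFPM1 and GRM4 were also at the lower end, at −37.1 to −33.3 points.

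Among 623 genes with at least 10 shared regions, a number chosen after the values were seen, MYO16 (26.0 points), ABCA13 (24.4), FAT3 (24.1) and ROBO2 (23.3) led. ROBO2, an axon guidance receptor gene, had 8 up and 0 down of 16, and its highest region scored 118 in ATRA+POM, 73.9 in POM, 3.19 in ATRA and 8.81 in DMSO. GSE1, a gene of a histone deacetylase complex subunit, had 13 down and 0 up of 29 regions with a median of −24.7 points, and 2 lost regions besides. SKAP1, a T cell adaptor gene, had the lowest median, −31.6 points, with 6 down and 1 up of 11, and CACNA1A followed with −28.9.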

How the data were processed

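OPM-2 cells of 4 treatments gave 1 ATAC-seq library each, and groups follow the labels. Per the labels' protocols, isolated nuclei were treated with Tn5 and the amplified fragments were read on an Illumina instrument. The authors deposited peaks and summits called separately in every library, on hg38 per the submitters' processing notes. Aligner, peak caller and handling of the Tn5 offset: not given in the sources used here. The deposited score column is a whole number that follows the −log10 q-value. The deposited fold is the ratio of summit pileup to background, judged from the values. The deposited −log10 p and −log10 q values describe the summit, and the last deposited column, another number, is the offset of the summit within its peak in bp. In the report, score means the deposited −log10 q-value, which also grows with depth, so ranks within a library were compared.

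Of the DMSO and ATRA+POM peaks, 2 lay off chromosomes 1 to 22 and X and were not used. Pileup and background were solved from fold and p under a Poisson tail, an assumption about the caller, and gave the deposited p within 0.01 (−log10) for 100% of peaks in each list. Depth is the recovered background per base of the smallest peak width, relative to DMSO, and is an estimate. Pileup ratios were divided by the median ratio over shared regions and have exact binomial intervals at 95%, which cover counting error only. Intervals of medians at 95% are order-statistic intervals over regions taken as independent, and hold no variation between libraries. No sample has a replicate, so no test was run. A recount of overlaps by bedtools 2.31.1 gave identical numbers. Genes (19970 protein-coding) and promoter windows (for 15811 of them) came from RefSeq tables of GRCh38.p14, the assembly of hg38, without exons or introns. Computation used Python 3.11.15, numpy 2.4.6, scipy 1.17.1, pandas 2.3.3 and matplotlib 3.10.9. The code for pileups, gained regions and rank shifts was first tested on simulated peak lists, and the rest was not.

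The regions, gene lists and thresholds were chosen with earlier results of these data known, and the lists overlap in part. Named genes were the 10 gained and 10 lost regions with the highest score (at least 300 bp wide, a gene within 100 kb), the 10 largest shifts each way, the 8 genes with most gained or lost regions, the 8 highest and lowest gene medians, up to 4 members of each list by shift or by a gained or lost region, and 20 fixed genes. Not every such gene is printed, and genes outside the rule are said to be so. Alternatives changed the number of candidates, the overlap, the ranked column, the shift, the distances and the depth.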

Additional observations from a re-analysis of the deposited data

How the results depend on the processing

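The number of gained and lost regions depended on how many candidates were taken and on what counted as absent, and the number up and down on the shift asked for. Gained and lost regions numbered 504 and 173 with the 20000 highest scores, 78 and 7 with 10000, and 3456 and 2508 with 40000. With absence meaning no summit within 250 bp they numbered 2934 and 2129, and with absence meaning that less of the peak was covered than not, 2098 and 2093, so the excess of gained regions was gone. Up and down regions numbered 10918 and 11603 at 15 points, and 3039 and 2248 at 35 points, so their order turned at 15. Ranking by fold gave a median shift of −1.68 points at gene boundaries, and ranking by pileup −3.48, against −3.78 by score. By fold the median of RARG was 1.01 and that of RXRG −0.57, both opposite in sign to the ranking by score. Of 146 other alternatives, for gene lists and single genes, 130 stayed within the interval of their value, and 15 changed sign, all for medians whose interval held 0 except RARG and RXRG. With DMSO pileups thinned to the ATRA+POM scale, chosen after seeing the data, 5853 regions were up and 5612 down. With 1 library per treatment, library, culture and treatment cannot be told apart, and no leave-one-out value exists. No paired analysis was possible because there are no replicates. Sequence of peaks outside the promoter windows is not analysed here.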
